A study of Mus musculus with 47 samples.

Results

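The genes described here encode the laminin chains, nidogens and perlecan that C2C12 muscle cells express. They were fixed by name as 9 members of the 45706 genes in the expression tables: the laminin alpha chains Lama2, Lama4 and Lama5, the beta chains Lamb1 and Lamb2, the gamma chain Lamc1, the nidogens Nid1 and Nid2, and Hspg2, which encodes perlecan. Bulk polyA RNA-seq was carried out on 47 libraries in 16 groups of mouse C2C12 myoblasts, with 3 biological replicates per group and 2 for the myoblast-enriched fraction with doxycycline (dox). Each group combined a cell line, a time of differentiation and treatment with dox or without it.

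C2C12 is an immortalised mouse myoblast line whose cells stop dividing and fuse into multinucleated myotubes when serum is withdrawn. C2C12iMyoD1 is a polyclonal population of C2C12 that carries an integrated Halo-tagged MyoD1 under a dox-responsive promoter and also keeps its own Myod1 gene, so dox acted on top of the endogenous program, and not every nucleus was induced. It was sampled at 0 h, in growth medium with 20% serum and with or without 24 h of dox, at 24 h of differentiation with or without 24 h of dox, and at 48 h and 120 h with or without dox for 48 h and 120 h. At 120 h the whole culture was sequenced, and so were 2 fractions, enriched for myoblasts or for myotubes by brief trypsin treatment and passage through a 40 µm strainer. The iCdh23 and iMcam lines carry a dox-inducible Cdh23 or Mcam, genes of cell adhesion molecules, and were sampled at 48 h with or without 48 h of dox. No line lacking an inducible gene was given dox among the libraries analysed here, so the action of dox and that of the induced gene cannot be told apart. The libraries were deposited in 3 tables. These held the 0 h and 24 h libraries, the C2C12iMyoD1 whole cultures at 48 h and 120 h, and the fractions together with iCdh23 and iMcam. The step from 24 h to 48 h and the change of table thus cannot be told apart either. The same holds where C2C12iMyoD1 whole cultures are set beside the fractions, iCdh23 or iMcam. Ranges and correlations over the 16 groups also cross these tables. Each comparison with and without dox lies within the same table.

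Laminins are cross-shaped heterotrimers of 1 alpha, 1 beta and 1 gamma chain that assemble before secretion and polymerise on the cell surface into the first layer of a basement membrane. Nidogens bridge the laminin network to collagen IV, and perlecan is a large heparan sulfate proteoglycan that binds both networks and growth factors. Around each muscle fibre the trimer built on the Lama2 chain links the matrix to dystroglycan and to the integrin alpha chain encoded by Itga7, and loss of Lama2 causes a congenital muscular dystrophy. Lamb2 is the beta chain enriched at the neuromuscular junction, while Lamb1 is the beta chain found along most of the fibre.

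Between 15066338 and 50950674 estimated counts were assigned to genes per library (median 22837926), and levels are given as CPM, counts scaled to the library size after TMM normalization. The myogenic markers Myod1, Myf5, Des and Cdh15 were present in every library, and the defining markers Sox10 of Schwann cells, Adipoq, Plin1 and Lep of adipocytes, Adgre1 of macrophages and Epcam of epithelium had at most 3 counts in all 47 libraries. Total Myod1 RNA did not rise with dox in C2C12iMyoD1 (181 ± 5.70 CPM without and 192 ± 10.3 CPM with dox at 0 h; 277 ± 41.8 and 90.7 ± 8.54 CPM at 120 h), so total Myod1 RNA gives no check of the dox labels there. Mcam and Cdh23 were higher with dox at 24 h in that line (Mcam 2.62 ± 0.372 and 16.9 ± 1.17 CPM, Cdh23 0.265 ± 0.126 and 3.31 ± 0.334 CPM). Mcam rose in iMcam from 17.9 ± 1.44 to 71.3 ± 2.79 CPM (edgeR adjusted p = 0.000123), whereas Cdh23 in iCdh23 was 385 ± 52.6 CPM without and 482 ± 76.8 CPM with dox (edgeR adjusted p = 0.102). Without dox at 48 h, Cdh23 was at 9.38 ± 0.851 CPM in C2C12iMyoD1 and 7.64 ± 1.83 CPM in iMcam. The iCdh23 libraries without dox thus already held far more Cdh23 RNA than the other lines, and the dox comparison there does not set Cdh23 RNA absent against present. Markers of other states moved with dox at 48 h: the summed CPM of 7 myotube genes was 10957 to 12200 without and 4357 to 4612 with dox in C2C12iMyoD1, 4441 to 7617 and 33.7 to 111 in iCdh23, and 3256 to 8322 and 447 to 1467 in iMcam. The summed CPM of 6 proliferation genes was 1158 to 1197 without and 416 to 438 with dox in C2C12iMyoD1, 801 to 1016 and 69.8 to 84.8 in iCdh23, and 703 to 845 and 113 to 169 in iMcam. The myotube genes of the 120 h culture summed to 12717 to 15245 CPM without and 9662 to 11376 with dox, and the proliferation genes to 269 to 294.5 and 422 to 490.5. At 0 h the proliferation genes summed to 2478 to 2508 CPM without and 2158 to 2222 with dox, and at 24 h to 857 to 883.5 and 765 to 803. The myotube genes summed to 1.03 to 2.14 and 4.29 to 4.825 CPM at 0 h, and to 6.81 to 8.24 and 7.78 to 8.41 CPM at 24 h. These sums thus also moved over the course without dox. In bulk RNA, fewer cells of a type and less RNA per cell cannot be told apart, and the part of these shifts in the results for the basement membrane genes was not tested.

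A second property that moved with the groups was the level of long, GC-rich transcripts. An index was computed per library as the median log2(CPM + 1) of 291 other genes with main transcripts of at least 5000 bases and at least 55% GC, minus the median of 10888 expressed genes. Hspg2 (14187 bases, 60.9% GC) and Lama5 (11388 bases, 59.9% GC) followed this index within groups, with r = 0.93 and r = 0.94 over the 47 libraries. For Lamb2 r was 0.70, for Lamb1 0.65, for Nid2 0.56, for Lamc1 0.42, for Nid1 0.41, for Lama4 0.27 and for Lama2 -0.08. Each correlation sets a gene beside an index from the same libraries, and no test was made of it. The index was higher with dox, with no overlap, at 0 h (0.348 to 0.367 without, 0.491 to 0.608 with dox), at 24 h (-0.119 to 0.077 and 0.241 to 0.349) and in iMcam (0.592 to 0.771 and 0.792 to 0.951), so values with the index as a covariate are given beside the results. What moved the index was not tested, and a covariate that moves with dox can take up part of a dox effect.

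**Figure D1:**
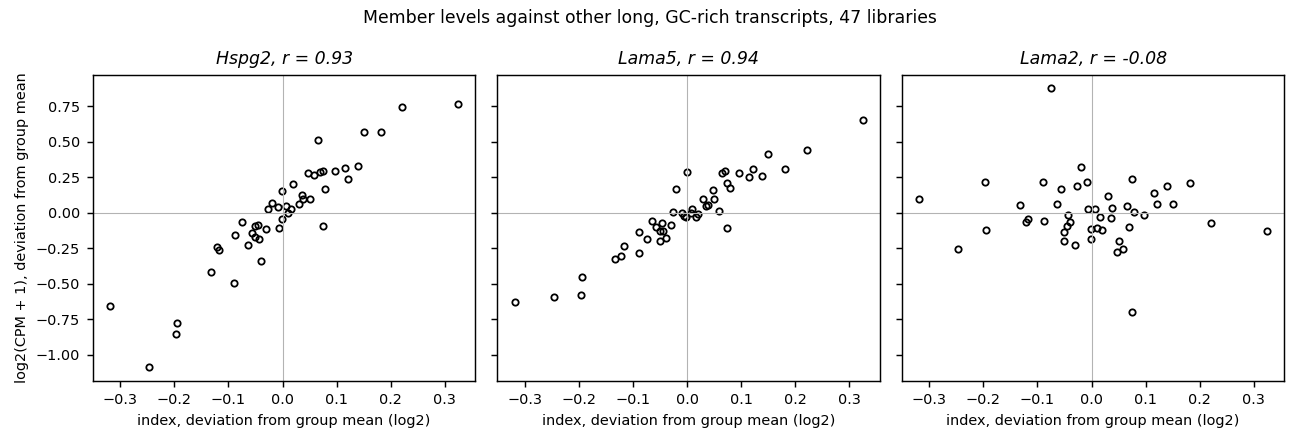
Deviation of Hspg2, Lama5 and Lama2 from their group means (log2(CPM + 1), vertical axis) against the deviation of the long GC-rich transcript index (log2, horizontal axis), 1 point per library, 47 libraries. Hspg2 and Lama5 rise with the index (r = 0.93 and r = 0.94), and Lama2 does not (r = -0.08).

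All 9 genes passed the low-count filter in every comparison, and their levels covered several orders of size. Scaled to the length of the main transcript, group means of the alpha chains ran from 0.15 to 26.4 CPM per kb for Lama2, from 0.135 to 4.02 for Lama4 and from 14.3 to 34.8 for Lama5. The beta chains ran from 9.04 to 58.5 CPM per kb for Lamb1 and from 14.1 to 91.1 for Lamb2, and the single gamma chain Lamc1 from 19.3 to 43.6. Group means per kb were 14.1 to 70.6 for Nid1, 10.9 to 142 for Nid2 and 24.9 to 99.1 for Hspg2. Laminin chains outside this set, which make other trimers, reached maxima over the libraries of 6.32 CPM for Lama1, 3.24 for Lama3, 43.7 for Lamb3 and 3.99 for Lamc3. The genes also differed in how far they ranged over the 16 groups, from 2.26-fold for Lamc1 and 2.44-fold for Lama5 to 12.98-fold for Nid2, 29.8-fold for Lama4 and 175-fold for Lama2. Neighbouring groups in the order of levels mostly overlapped: 10 of the 15 neighbouring pairs for Lama2, Lamb1 and Nid2, 11 for Lama4, 12 for Lamb2, 13 for Lamc1 and Nid1, 14 for Lama5 and all 15 for Hspg2.

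**Figure D2:**
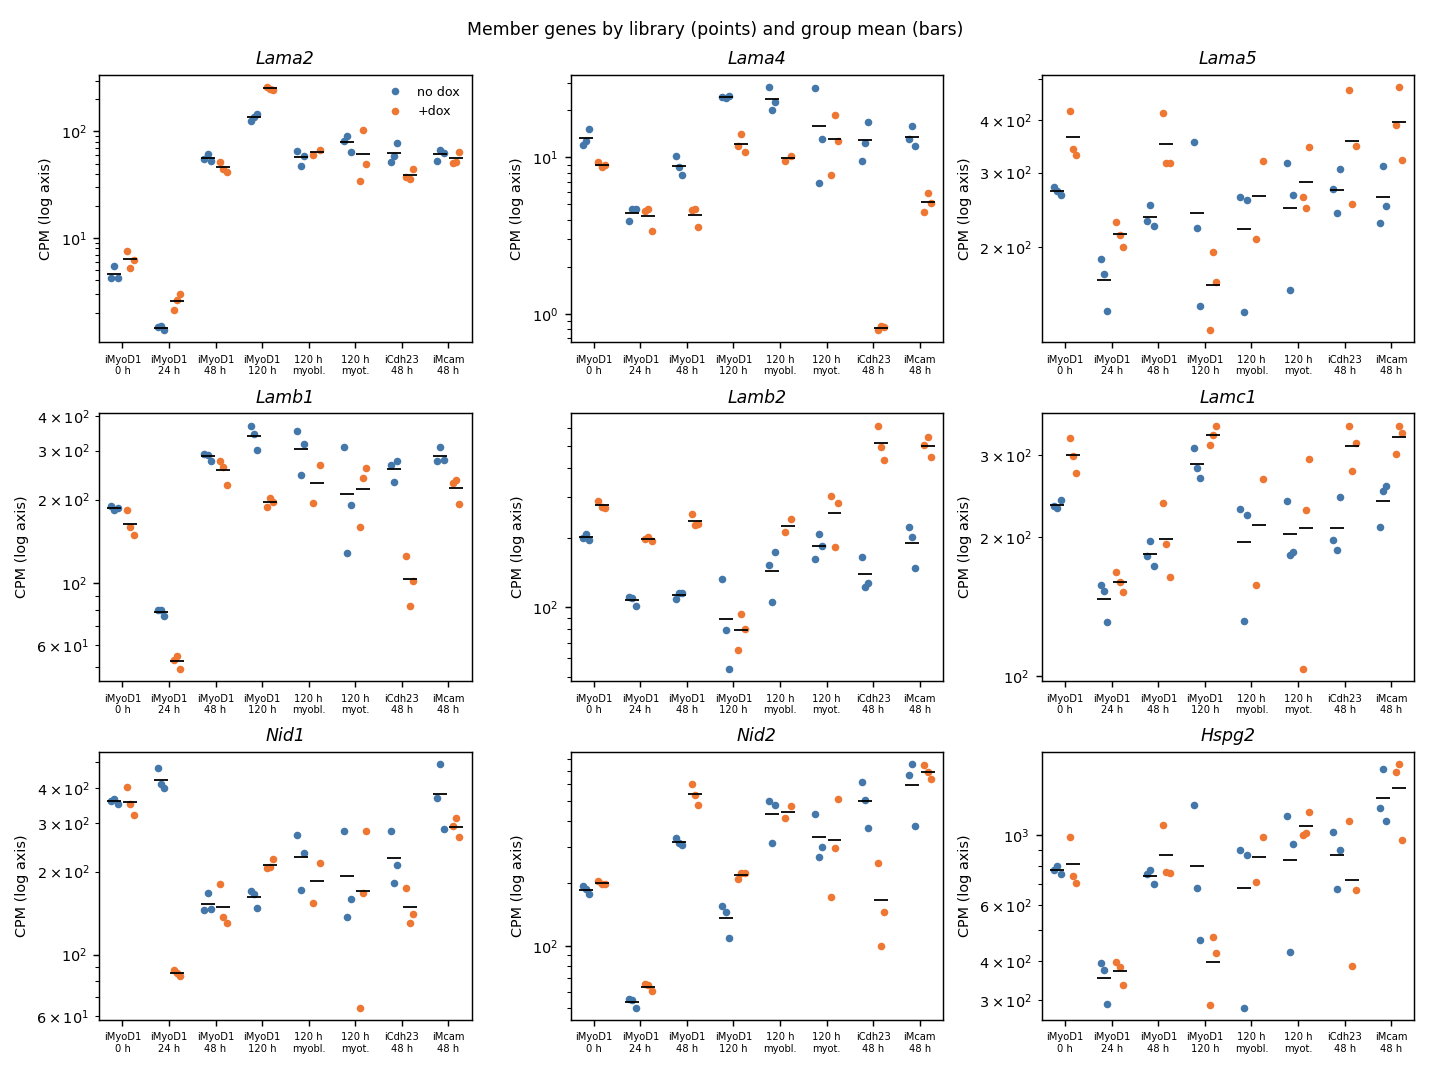
CPM (log axis) of each gene in every library (points) with the group mean (bars), for the 8 settings without dox (blue) and with dox (orange). Lama2 runs from 1.45 CPM at 24 h to 253 CPM at 120 h with dox, Nid1 drops to 85.6 CPM with dox at 24 h, and Lama4 reaches 0.817 CPM in iCdh23 with dox.

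The first comparison asks how these genes changed as C2C12iMyoD1 left growth medium and differentiated without dox. From 0 h to 24 h, 8 of the 9 genes fell and Nid1 rose, by edgeR adjusted p under 0.05, a threshold that 74.3% of all tested genes passed in either direction. Their median log2 fold change was -1.11 beside 0.01 over all tested genes. From 24 h to 48 h, 7 rose and Nid1 fell, where 76.8% of all genes were called, with medians of 1.04 and -0.02. From 48 h to 120 h, 4 rose (Lama2, Lama4, Lamb1 and Lamc1) and Nid2 fell, where 67.1% were called, with medians of 0.14 and -0.03.

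Lama2 changed most over this course. Its libraries held 4.2, 5.51 and 4.17 CPM at 0 h, 1.45, 1.51 and 1.37 CPM at 24 h, 54.9, 61.0 and 52.6 CPM at 48 h, and 124, 138 and 145 CPM at 120 h. No library of one time overlapped with those of another. The log2 fold change was -1.66 ± 0.204 (SE) from 0 h to 24 h, 5.33 ± 0.107 from 24 h to 48 h, a 40.2-fold increase (edgeR adjusted p = 5.17e-14), and 1.31 ± 0.100 from 48 h to 120 h (edgeR adjusted p = 5.77e-06). With the index as a covariate, the first step was -1.52 (edgeR adjusted p = 0.124) and the second 4.68.

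The laminin partners of Lama2 moved over a narrower range. Lamb1 fell from 190, 184 and 186 CPM at 0 h to 80.0, 79.9 and 76.1 CPM at 24 h, stood at 292, 290 and 276 CPM at 48 h and at 369, 345 and 302 CPM at 120 h. Lamb2 fell from 199, 207 and 195 CPM to 111, 109 and 101 CPM at 24 h, and then stayed between 54.0 and 132 CPM in the libraries of 48 h and 120 h, so the beta chains parted after 24 h. The log2 fold change from 24 h to 48 h was 1.91 ± 0.0588 (SE) for Lamb1 (edgeR adjusted p = 3.91e-12) and 0.13 ± 0.0625 for Lamb2 (edgeR adjusted p = 0.0790). The later rise of Lamb1, 0.28 ± 0.0898 from 48 h to 120 h, lost its call without replicate 2 of 120 h (0.27) or without any of the 48 h libraries (0.29, 0.30 and 0.26). Lamc1, the gamma chain common to these trimers, kept group means between 147 and 287 CPM.

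The nidogens went opposite ways. Nid1 rose from 360, 366 and 351 CPM at 0 h to 474, 415 and 402 CPM at 24 h and was at 145, 167 and 146 CPM at 48 h. Nid2 fell from 193, 188 and 178 CPM to 55.04, 54.5 and 50.3 CPM at 24 h and reached 331, 313 and 308 CPM at 48 h. The groups did not overlap at either step for either gene, with log2 fold changes of 0.27 ± 0.0682 (SE) and -1.44 ± 0.0802 for Nid1 and -1.79 ± 0.0627 and 2.63 ± 0.0650 for Nid2. By 120 h Nid2 had fallen again to 156, 145 and 109 CPM, while Nid1 was at 170, 166 and 147 CPM.

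Hspg2 fell from 774, 797 and 751 CPM at 0 h to 394, 375 and 293 CPM at 24 h and was at 754, 774 and 698 CPM at 48 h. Lama5 made the same excursion on a smaller scale, from a mean of 271 ± 5.69 CPM to 167 ± 23.5 and 235 ± 14.4 CPM. With the index as a covariate, Hspg2 changed by -0.31 and 0.13 (edgeR adjusted p = 0.126 and 0.553), Lamc1 by -0.15 at the first step (edgeR adjusted p = 0.455), Lama4 by 1.12 at the second (edgeR adjusted p = 0.131), and the sign turned for Lama5 at both steps (0.06 and -0.35) and for Lamc1 at the second (-0.30). The falls of Lamb1, Lamb2 and Nid2 to 24 h kept direction and call with the covariate, and so did the 24 h to 48 h rises of Lama2, Lamb1 and Nid2. The rise of Nid1 to 24 h was 0.65 with it. From 48 h to 120 h, falls of Lama5 (-0.12) and Lamb2 (-0.50) were called with the covariate and not without it.

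**Figure D3:**
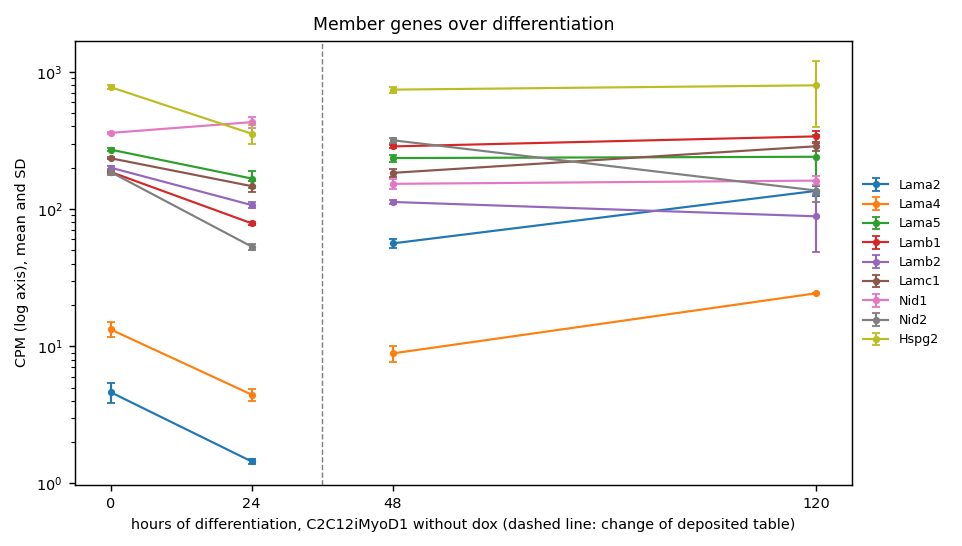
Mean CPM (log axis) with SD (error bars, n = 3) of the 9 genes against hours of differentiation in C2C12iMyoD1 without dox, with a dashed line where the deposited table changes. Between the 24 h and 48 h means Lama2 rises from 1.45 to 56.2 CPM and Nid1 drops from 430 to 153 CPM.

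The next comparisons ask what dox did in each line and at each time. In C2C12iMyoD1 at 0 h, 3 of the 9 genes rose and 1 fell (37.8% of all tested genes called in either direction), at 24 h 4 rose and 2 fell (62.8%), at 48 h 3 rose and 2 fell (56.6%), and in the 120 h culture 3 rose and 3 fell (45.2%). In iCdh23 2 rose and 5 fell (63.8%), and in iMcam 3 rose and 2 fell (49.0%). The share of the set that was called was thus near the background in most settings. The median log2 fold change was 0.12 at 0 h, 0.15 at 24 h, 0.10 at 48 h, -0.16 at 120 h, -0.60 in iCdh23 and 0.12 in iMcam, and the median over all tested genes lay between 0.00 and 0.02. These comparisons each have their own control libraries.

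**Figure D4:**
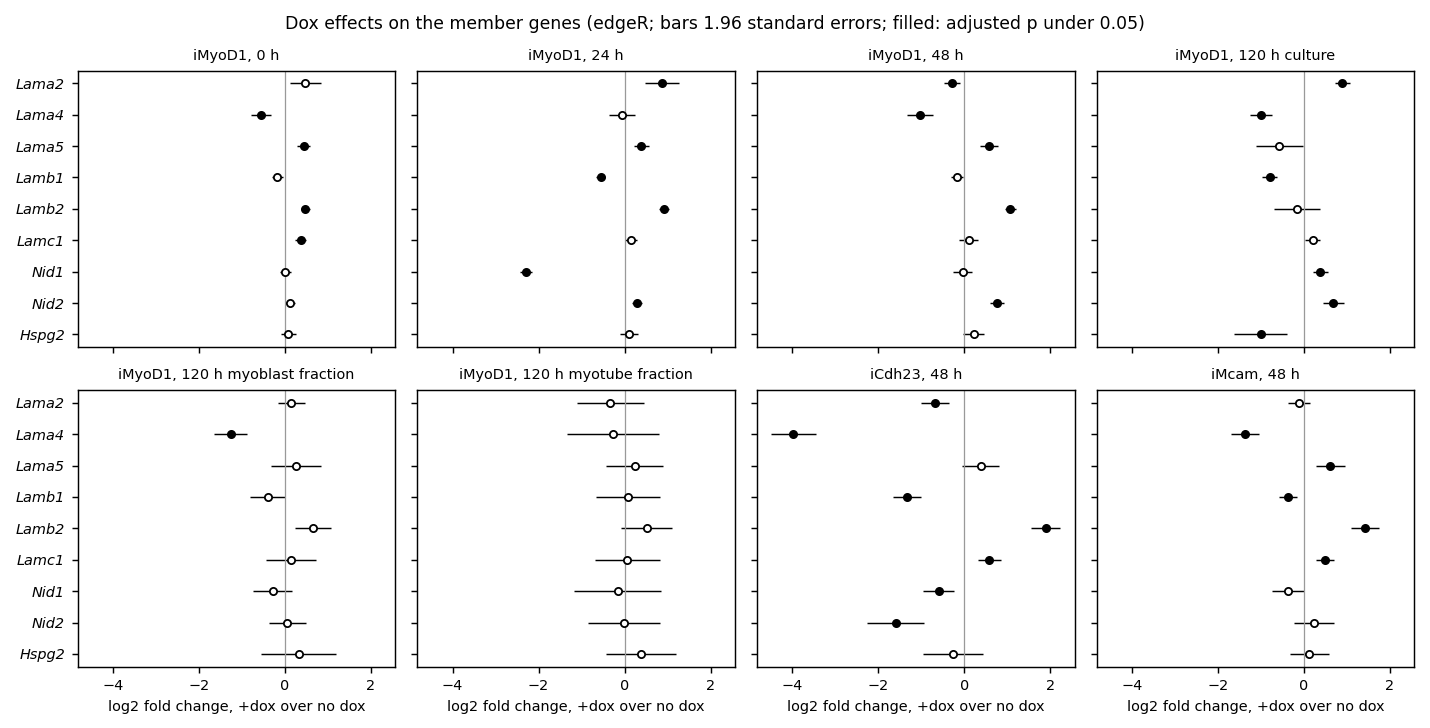
Log2 fold change with dox over without dox for the 9 genes in the 8 settings, with bars proportional to the standard error and filled points for edgeR adjusted p under 0.05. Lamb2 lies right of 0 and is filled in 5 panels, and Lama4 lies left of 0 and is filled in 6.

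Among the beta chains, Lamb2 rose with dox in 5 of the 8 settings. At 24 h its libraries held 111, 109 and 101 CPM without dox and 197, 202 and 194 CPM with it. At 48 h they held 108, 115 and 115 CPM without and 254, 228 and 229 CPM with dox, and at 0 h 199, 207 and 195 CPM without and 288, 270.5 and 269 CPM with dox. In each of these settings all libraries with dox stood above all those without. The log2 fold change was 0.47 ± 0.0517 (SE) at 0 h (edgeR adjusted p = 9.79e-06), 0.91 ± 0.0565 at 24 h (edgeR adjusted p = 5.53e-08) and 1.07 ± 0.0681 at 48 h (edgeR adjusted p = 4.28e-07).

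The adhesion lines showed larger differences in Lamb2. In iCdh23 the libraries went from 166, 122 and 127 CPM without dox to 612, 494 and 433 CPM with it, a 3.70-fold rise (log2 fold change 1.89 ± 0.173 (SE), edgeR adjusted p = 7.08e-05). In iMcam they went from 222, 200.5 and 148 CPM to 502, 547 and 446 CPM (1.41 ± 0.164, edgeR adjusted p = 0.000633). With the index as a covariate the log2 fold change of Lamb2 was 0.35 at 0 h, 0.71 at 24 h, 1.01 at 48 h and 1.68 in iCdh23, each still called, and 1.12 in iMcam (edgeR adjusted p = 0.0760).

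In the 120 h culture no rise was called without the covariate. Lamb2 was at 132, 79.2 and 54.0 CPM without and 65.0, 93.2 and 80.3 CPM with dox, and the groups overlapped (log2 fold change -0.16 ± 0.276 (SE), edgeR adjusted p = 0.660). The change with the index as a covariate was 0.23 and was called (edgeR adjusted p = 0.00525). The dox effect at 120 h minus that at 48 h was -1.23 ± 0.318 (edgeR adjusted p = 0.00880). In that test of a difference 5 of the 9 genes were called beside 34.1% of all genes.

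Lamb1 moved the other way. In the 120 h culture it fell from 369, 345 and 302 CPM without dox to 189, 203 and 196 CPM with it, with no overlap (log2 fold change -0.80 ± 0.0934 (SE), edgeR adjusted p = 0.000153). In iCdh23 it fell from 267, 232 and 276 CPM to 125, 82.4 and 102 CPM (-1.33 ± 0.163, edgeR adjusted p = 0.000295), and at 24 h from 80.0, 79.9 and 76.1 CPM to 52.8, 54.8 and 49.2 CPM (-0.56 ± 0.0577, edgeR adjusted p = 4.15e-06). The smaller fall in iMcam, from 275, 308 and 277 CPM to 229.5, 236 and 193 CPM (-0.37 ± 0.107, edgeR adjusted p = 0.0249), lost its call with the index as a covariate (-0.67, edgeR adjusted p = 0.0573), without iMcam dox replicate 1 (-0.40) or 3 (-0.28) or without iMcam no-dox replicate 2 (-0.32). At 0 h and 48 h the log2 fold changes were -0.18 and -0.17 and were not called. Both were called with the index as a covariate (-0.58, edgeR adjusted p = 0.000956, and -0.23, edgeR adjusted p = 0.0121), and DESeq2 called the 0 h value without it (adjusted p = 0.0385).

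The balance of the beta chains, as the share of Lamb2 in the length-scaled sum of Lamb1 and Lamb2, shifted accordingly. Without dox the share was 52.5% ± 0.995 (SD, n = 3) at 0 h, 58.2% ± 0.598 at 24 h, 28.8% ± 1.26 at 48 h and 20.5% ± 5.82 in the 120 h culture. With dox it was 63.4% ± 1.65, 79.5% ± 0.599, 48.9% ± 1.97 and 29.3% ± 2.98. In iCdh23 it went from 35.4% ± 3.395 to 83.6% ± 2.33 and in iMcam from 40.3% ± 4.90 to 70.0% ± 0.681. The lowest library with dox was above the highest without it in each of these settings but the 120 h culture, where 26.9% without dox stood above 26.2% with dox.

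**Figure D5:**
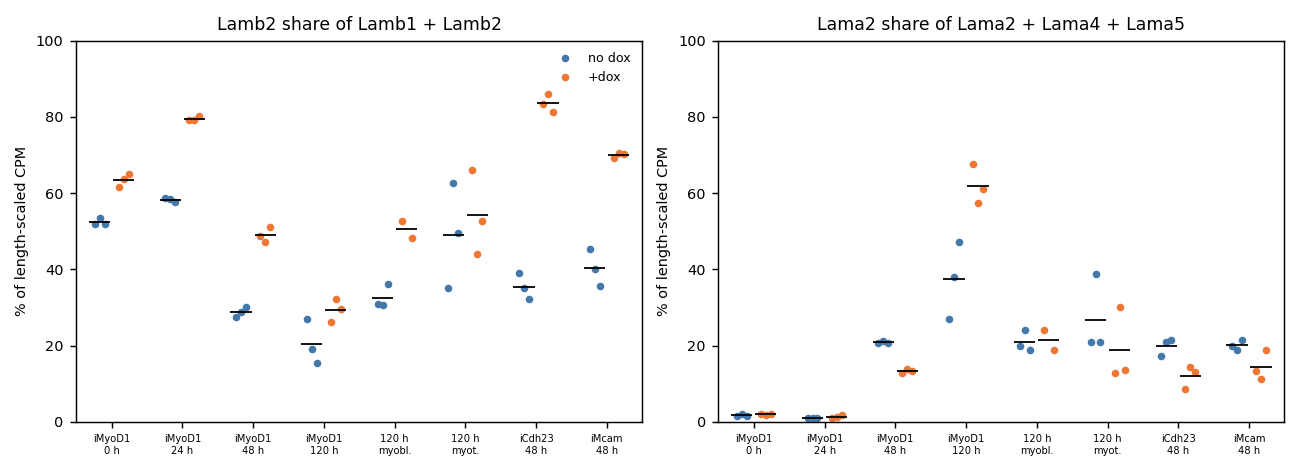
Share of Lamb2 in Lamb1 plus Lamb2 (left) and of Lama2 in the 3 alpha chains (right), in percent of CPM per kb, for each library (points) with the group mean (bars), without dox (blue) and with dox (orange). The Lamb2 share reaches 83.6% in iCdh23 with dox, and the Lama2 share reaches 62.0% in the 120 h culture with dox.

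The sequences before the starts of these genes are shown because MyoD1 binds E-boxes, written CANNTG on either strand since the motif reads the same on both. RefSeq windows of 250 bases before the start (GRCm38.p6) were found for 6 of the 9 genes. E-boxes lay 174 bases before the start of Lamb2 (CATCTG), 243 and 61 bases before that of Lamb1 (CACTTG and CATGTG), 180 before that of Lama2 (CATCTG) and 246 and 186 before that of Lama5 (CACCTG and CAGGTG), with none in the windows of Nid1 and Hspg2. Of all 32851 such windows, 66.2% hold a CANNTG and 13.0% the form CAGCTG, which was in none of the 6. A match is a description of the letters and not of binding, which was not analysed here. The stretches outside annotated exons follow for the beta chains, which went opposite ways, and for Nid1, which fell most with dox at 24 h. Capitals mark each CANNTG that lies wholly in the printed stretch. The CATGTG of Lamb1 runs past the end of its stretch and is not marked. The sites are Lamb2 chr9:108479612-108479735 (+), Lamb1 chr12:31265043-31265233 (+) and Nid1 chr13:13437352-13437550 (+).
Lamb2: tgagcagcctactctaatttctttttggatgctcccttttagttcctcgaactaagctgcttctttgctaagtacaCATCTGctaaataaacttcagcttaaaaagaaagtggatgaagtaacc
Lamb1: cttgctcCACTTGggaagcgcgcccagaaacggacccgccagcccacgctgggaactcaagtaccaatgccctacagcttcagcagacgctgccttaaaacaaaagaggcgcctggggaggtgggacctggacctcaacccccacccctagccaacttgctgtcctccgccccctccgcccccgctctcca
Nid1: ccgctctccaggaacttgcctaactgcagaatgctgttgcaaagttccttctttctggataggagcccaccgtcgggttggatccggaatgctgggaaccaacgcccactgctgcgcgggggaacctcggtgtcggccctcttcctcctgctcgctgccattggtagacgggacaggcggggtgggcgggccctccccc

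Of the alpha chains, Lama4, which is found in vessels and in embryonic muscle, fell with dox in 6 of the 8 settings. In iCdh23 its libraries went from 9.50, 12.3 and 16.8 CPM without dox to 0.790, 0.840 and 0.820 CPM with it, a 15.7-fold fall (log2 fold change -3.97 ± 0.262 (SE), edgeR adjusted p = 1.72e-05). In iMcam they went from 13.1, 15.8 and 11.8 CPM to 4.46, 5.92 and 5.09 CPM (-1.37 ± 0.1697, edgeR adjusted p = 0.000783). The difference between these effects was 2.58 ± 0.311 (edgeR adjusted p = 0.000609), in a test that called 3 of the 9 genes (Lama4, Lamb1 and Nid2) beside 10.6% of all genes.

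In C2C12iMyoD1, Lama4 was at 10.2, 8.68 and 7.72 CPM without and 4.60, 4.66 and 3.59 CPM with dox at 48 h. In the 120 h culture it was at 24.3, 24.0 and 24.6 CPM without and 11.8, 14.0 and 10.8 CPM with dox. The groups were apart at both times, and the log2 fold changes were -1.03 ± 0.152 (SE) and -1.0 ± 0.136 (edgeR adjusted p = 0.000189 and 0.000364). At 0 h it fell by 0.56 ± 0.114, a call lost with the index as a covariate (-0.64, edgeR adjusted p = 0.173), and at 24 h the groups overlapped (-0.06). In the myoblast-enriched fraction it was at 28.3, 20.2 and 22.6 CPM without and 9.43 and 10.3 CPM with dox (-1.26 ± 0.198, edgeR adjusted p = 0.0218).

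Lama2, the muscle alpha chain, changed direction with time. At 24 h its libraries held 1.45, 1.51 and 1.37 CPM without and 2.09, 2.62 and 2.98 CPM with dox. At 48 h they held 54.9, 61.0 and 52.6 CPM without and 52.2, 44.0 and 41.6 CPM with dox, and in the 120 h culture 124, 138 and 145 CPM without and 263, 250.3 and 247 CPM with dox. None of these pairs of groups overlapped, although the gap at 48 h was narrow (52.6 against 52.2 CPM). The log2 fold change was 0.86 ± 0.203 (SE) at 24 h (edgeR adjusted p = 0.00285), -0.29 ± 0.0971 at 48 h (edgeR adjusted p = 0.0244) and 0.89 ± 0.0868 at 120 h (edgeR adjusted p = 5.03e-05). The call at 24 h was lost with the index as a covariate (1.09, edgeR adjusted p = 0.138), and that at 48 h without dox replicate 2 (-0.25) or 3 (-0.23) or no-dox replicate 1 (-0.31) or 2 (-0.23). At 0 h the groups overlapped and the change was 0.47 (edgeR adjusted p = 0.0552). The 120 h effect minus the 48 h effect was 1.19 ± 0.138 (edgeR adjusted p = 2.02e-05). The 120 h rise was not seen in the fractions, where the groups overlapped and Lama2 was not called. Its means without and with dox were 57.6 and 63.6 CPM in the myoblast-enriched fraction (0.15) and 79.3 and 62.1 CPM in the myotube-enriched fraction (-0.33).

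In the adhesion lines, Lama2 fell in iCdh23 from 52.0, 59.4 and 78.0 CPM to 37.2, 35.9 and 44.8 CPM (-0.69 ± 0.166, edgeR adjusted p = 0.00788). That call was lost with the index as a covariate (-0.65, edgeR adjusted p = 0.0582) and with all groups of the same deposited table in one fit (-0.68, edgeR adjusted p = 0.0505). In iCdh23 and iMcam the results for Lama2 differed. Lama2 overlapped between groups in iMcam (-0.11 ± 0.129, edgeR adjusted p = 0.522). As a share of the length-scaled alpha chains, Lama2 was 1.82% ± 0.303 at 0 h, 0.976% ± 0.0982 at 24 h and 20.9% ± 0.326 at 48 h without dox. In the 120 h culture it was 37.4% ± 10.2 without and 62.0% ± 5.21 (SD, n = 3) with dox, and the groups were apart there. With dox the share was lower at 48 h (13.2% ± 0.556), in iCdh23 (20.0% ± 2.255 without and 12.02% ± 3.06 with dox) and in iMcam (20.05% ± 1.37 and 14.4% ± 3.96), with no overlap, though in iMcam the nearest libraries were at 18.81% and 18.79%. Lama5 held most of the remainder, from 94.2% ± 1.15 at 24 h without dox to 33.3% ± 5.14 in the 120 h culture with dox.

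Lama5, a broadly expressed chain that held most of the length-scaled alpha chains up to 48 h, rose with dox at 0 h, 24 h and 48 h and in iMcam. At 48 h the libraries were at 231, 251 and 224 CPM without and 416, 316 and 317 CPM with dox (log2 fold change 0.57 ± 0.106 (SE), edgeR adjusted p = 0.000980), and with the index as a covariate the change was 0.40 and still called. At 0 h they were at 277, 271 and 266 CPM without and 419, 341 and 331 CPM with dox (0.43 ± 0.0745), and at 24 h the change was 0.39 ± 0.0930. With the index as a covariate these turned to -0.07 and -0.22, and the 0.61 ± 0.174 of iMcam to -0.01. The iMcam call was also lost without dox replicate 1 (0.62) or 2 (0.45) or no-dox replicate 1 (0.50). In the 120 h culture the groups overlapped, at 355, 221 and 145 CPM without and 127, 195 and 166 CPM with dox (-0.57 ± 0.279, not called), and with the index as a covariate the change was -0.18 and was called (edgeR adjusted p = 0.0103).

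Lamc1, the gamma chain of all these trimers, rose at 0 h from 233, 231 and 240 CPM to 327, 299.5 and 275 CPM (log2 fold change 0.36 ± 0.0606 (SE), edgeR adjusted p = 0.000335). In iCdh23 it rose from 197, 187 and 244 CPM to 347, 278 and 319 CPM (0.58 ± 0.138, edgeR adjusted p = 0.00737) and in iMcam from 210.2, 251 and 257 CPM to 302, 347 and 335 CPM (0.48 ± 0.107, edgeR adjusted p = 0.00843). All libraries with dox were above those without in these 3 settings. With the index as a covariate these calls were lost (0.07, 0.45 and 0.40). In the other settings Lamc1 was not called, and in the 120 h culture it was at 311, 282 and 268 CPM without and 316, 332 and 348 CPM with dox (0.20), which became a called 0.26 with the covariate (edgeR adjusted p = 0.000246).

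Nid1 gave the largest dox effect at 24 h. Its libraries held 474, 415 and 402 CPM without dox and 87.7, 85.8 and 83.5 CPM with it. The groups were far apart, a 4.93-fold fall (log2 fold change -2.30 ± 0.0715 (SE), edgeR adjusted p = 3.0e-10, and -2.59 with the index as a covariate). At 0 h the libraries overlapped, at 360, 366 and 351 CPM without and 405, 350.2 and 320.1 CPM with dox (0.01, and a called -0.42 with the covariate, edgeR adjusted p = 0.00939). The 24 h effect minus the 0 h effect was -2.35 ± 0.108 (edgeR adjusted p = 1.36e-10), in a test that called 3 of the 9 genes (Nid1, Lamb1 and Lamb2) beside 34.1% of all genes.

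At later times Nid1 did not show a fall of this size. At 48 h it was at 145, 167 and 146 CPM without and 180, 137 and 130 CPM with dox, and the groups overlapped (-0.04, and a called -0.21 with the covariate, edgeR adjusted p = 0.0215). In the 120 h culture it rose from 170, 166 and 147 CPM to 206, 208 and 222 CPM (log2 fold change 0.38 ± 0.0860 (SE), edgeR adjusted p = 0.00566). In iCdh23 it fell from 280.4, 182 and 211 CPM to 174, 130.4 and 141 CPM (-0.60 ± 0.182, edgeR adjusted p = 0.0216), a call lost without dox replicate 2 (-0.51) or 3 (-0.56). In iMcam it was at 370.2, 489 and 284 CPM without and 293, 312 and 267 CPM with dox (-0.37 ± 0.189, edgeR adjusted p = 0.139), and with the replicate number as a block it was called (-0.34, edgeR adjusted p = 0.0426).

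Nid2 rose with dox at 24 h, 48 h and 120 h in C2C12iMyoD1. At 48 h the libraries were at 331, 313 and 308 CPM without and 606, 535 and 477 CPM with dox, and in the 120 h culture at 156, 145 and 109 CPM without and 211, 224 and 224 CPM with dox. The groups were apart at both times, with log2 fold changes of 0.76 ± 0.0861 (SE, edgeR adjusted p = 2.97e-05) and 0.68 ± 0.125 (edgeR adjusted p = 0.00207). At 24 h it rose from 55.04, 54.5 and 50.3 CPM to 65.3, 64.7 and 60.3 CPM (0.28 ± 0.0592, edgeR adjusted p = 0.00138), which became 0.02 with the index as a covariate.

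The adhesion lines differed in Nid2. In iCdh23 it fell from 616, 507 and 372 CPM without dox to 250, 100.1 and 146 CPM with it, with no overlap (log2 fold change -1.59 ± 0.338 (SE), edgeR adjusted p = 0.00443). In iMcam it was at 669, 750 and 379 CPM without and 748, 687 and 639 CPM with dox, and the groups overlapped (0.23 ± 0.236). The difference between these effects was 1.80 ± 0.452 (edgeR adjusted p = 0.0262) and was not called without iCdh23 dox replicate 2 (1.54). Nid2 shares 437 exonic bases with Rtraf on the opposite strand, and Rtraf fell with dox at 24 h (-0.47) and 120 h (-0.56), in iCdh23 (-0.87) and in iMcam (-0.42). As a share of the length-scaled nidogens, Nid2 was 13.4% ± 0.719 without and 48.0% ± 0.542 with dox at 24 h, and 72.2% ± 1.958 without and 81.9% ± 1.08 (SD, n = 3) with dox at 48 h. It was 51.2% ± 2.77 and 56.5% ± 0.854 at 120 h and 65.8% ± 3.41 and 74.8% ± 1.43 in iMcam, and it was lower with dox in iCdh23 (73.3% ± 4.46 and 56.5% ± 7.66). The groups did not overlap in these 5 settings.

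Hspg2, the perlecan gene, was called with dox in the 120 h culture alone in the edgeR test of each pair of groups without a covariate or block. There its libraries held 1247, 681 and 465 CPM without and 291, 477 and 425 CPM with dox. These groups overlapped (log2 fold change -1.01 ± 0.318 (SE), edgeR adjusted p = 0.0273), and the call was lost with DESeq2 (-1.01, adjusted p = 0.0710), with the replicate block (-0.91) and without dox replicate 1 (-0.83) or 3 (-1.07) or no-dox replicate 1 (-0.54) or 2 (-1.12). In the same culture the index ran from 0.162 to 0.805 without and from 0.194 to 0.424 with dox, and with it as a covariate the change was -0.56 and was called (edgeR adjusted p = 3.06e-08). In the other settings the groups overlapped, and the log2 fold changes of the whole-culture comparisons lay between -0.26 in iCdh23 and 0.22 at 48 h. Hspg2 was also called with the index as a covariate at 0 h (-0.61, edgeR adjusted p = 0.000714, against 0.08 without it), at 24 h (-0.58, edgeR adjusted p = 0.00241, against 0.10) and in iCdh23 (-1.08, edgeR adjusted p = 0.00268).

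In the myoblast-enriched fraction from 120 h, 1 of the 9 genes was called with dox in the test without a block, the fall of Lama4, beside 4.34% of all genes. That call was lost without myoblast dox replicate 2 (-1.21) or 3 (-1.32) or no-dox replicate 3 (-1.29). Lamb2 was at 153, 105 and 174 CPM without and 211 and 240 CPM with dox there, with no overlap (0.65 ± 0.214, edgeR adjusted p = 0.133). Lamb2 (0.58), Lamb1 (-0.50) and Nid1 (-0.40) were called there with the index as a covariate. With the replicate number as a block, which left 2 pairs, 4 of the 9 were called beside 28.4% of all genes in that fit: Lama4 (-1.12, edgeR adjusted p = 0.000980), Lama5 (0.44, edgeR adjusted p = 0.0258), Lamb2 (0.73, edgeR adjusted p = 0.00753) and Hspg2 (0.76, edgeR adjusted p = 0.0495). In the myotube-enriched fraction none of the 9 was called by edgeR, beside 0.0% of all genes, and none had an unadjusted p under 0.05 or was called by DESeq2 (counts of 0 and 0). The first of its 3 dox libraries stood apart, with Lamc1 at 104 CPM against 229 and 294.5 CPM and Nid1 at 64.3 CPM against 167 and 280.2 CPM.

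Between the fractions, none of the 9 genes was called by edgeR either without dox (0.592% of all genes called, 1 member with an unadjusted p under 0.05, 0 by DESeq2) or with dox (0.0% of all genes called, 0 members with an unadjusted p under 0.05, 0 by DESeq2). Without dox Lama2 was at 66.2, 47.6 and 59.0 CPM in the myoblast-enriched and 82.0, 91.4 and 64.6 CPM in the myotube-enriched fraction (log2 fold change 0.47 ± 0.184 (SE), edgeR adjusted p = 0.269). The 7 myotube genes summed to 4982 to 7221 CPM in the first and 12555 to 19620 CPM in the second, ranges that did not overlap. The difference between the dox effects of the fractions called none of the 9 genes by edgeR, beside 0.0% of all genes (0 members with an unadjusted p under 0.05, 0 by DESeq2). For 3 genes the whole 120 h culture did not lie between its fractions. Group means of Lama2 were 136 and 253 CPM in the whole culture and 57.6 to 79.3 CPM in the fractions. Those of Lamb2 were 79.5 and 88.5 against 144 to 255 CPM, and those of Nid2 136.5 and 220 against 325 to 444 CPM. The whole culture and the fractions were deposited in different tables, so fractionation and the change of table cannot be told apart here. The cause was not tested.

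A list of 18 other basement membrane genes and a list of 10 laminin receptors show what surrounded these genes. Of the first list, 14 to 17 were tested per comparison. From 0 h to 24 h without dox, where 74.3% of all genes were called, 13 of 14 fell and 1 rose, among them Col4a1, a collagen IV chain (157 to 16.2 CPM, log2 fold change -3.26), and from 24 h to 48 h (76.8% called) 14 of 16 rose and 2 fell, with Col4a1 at 682 CPM (5.45) and Col15a1 from 0.529 to 27.0 CPM (5.70). The size of the Col15a1 rise rests on a very low level at 24 h. All 10 receptors fell in the first step and rose in the second, beside the same 74.3% and 76.8% of all genes called, among them Itga7 (80.6 to 1042 CPM, 3.74) and Dag1, which encodes dystroglycan (130 to 1039 CPM, 3.04).

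With dox, 3 of the 16 tested other basement membrane genes rose and 11 fell at 48 h (56.6% of all genes called, median log2 fold change -0.56 beside 0.01 over all genes). At 120 h 3 of 16 rose and 8 fell (45.2%, median -0.44), in iCdh23 3 of 17 rose and 11 fell (63.8%, median -1.64) and in iMcam 3 of 17 rose and 9 fell (49.0%, median -0.86 beside 0.02). In the fractions 0 rose and 4 fell of 17 for myoblasts (4.34%, median -0.51), and for myotubes edgeR called none (0.0%, median -0.22 beside 0.04, 0 with an unadjusted p under 0.05 and 0 by DESeq2). At 0 h 5 of 14 rose and 3 fell (37.8%, median 0.07) and at 24 h 8 of 15 rose and 3 fell (62.8%, median 0.33). Agrn, which encodes agrin, the heparan sulfate proteoglycan that clusters acetylcholine receptors at the synapse, rose by 0.63 on the log2 scale at 0 h and by over 2-fold in 5 settings: from 45.8 to 103 CPM at 24 h (log2 fold change 1.19), 86.2 to 240.1 CPM at 48 h (1.47), 64.8 to 147 CPM at 120 h (1.18), 112 to 532 CPM in iCdh23 (2.25) and 98.1 to 458 CPM in iMcam (2.24). Tinagl1, a secreted glycoprotein of basement membranes, rose by 0.21 on the log2 scale at 0 h and by 1.61, 2.58, 1.77, 4.01 and 3.68 in the same 5 settings. Col15a1, a collagen of the muscle basement membrane, fell in iCdh23 from 17.8 to 0.159 CPM (-6.79), in iMcam from 15.4 to 3.68 CPM (-2.04), in the myoblast-enriched fraction from 91.4 to 19.0 CPM (-2.26), at 48 h from 27.0 to 8.01 CPM (-1.74) and at 120 h from 67.9 to 20.6 CPM (-1.73). At 24 h it went from 0.529 to 0.0808 CPM (-2.62), very low levels in both groups. Ntn4, a netrin that binds laminin, fell by 4.14, 1.91, 1.22 and 0.77 on the log2 scale in iCdh23, in iMcam, in the myoblast-enriched fraction and at 48 h. Lama3, an alpha chain of epithelial laminin, rose in iCdh23 (2.92) and iMcam (2.55) to levels under 3 CPM.

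Of the 10 receptors, 2 rose and 3 fell with dox at 0 h (median -0.11, beside 37.8% of all genes called) and 6 rose and 2 fell at 24 h (0.50, 62.8%). At 48 h 3 rose and 6 fell (-0.36, 56.6%), at 120 h 1 and 4 of the 9 tested (-0.24, 45.2%), in iCdh23 1 and 7 (-0.63, 63.8%) and in iMcam 2 and 4 (-0.36, 49.0%). In the myoblast-enriched fraction 1 fell (-0.18, 4.34%), and in the myotube-enriched fraction edgeR called none (-0.06, 0.0%, 0 with an unadjusted p under 0.05 and 0 by DESeq2). Itga7, the muscle laminin receptor chain, fell from 1042 to 461 CPM at 48 h (-1.18), from 1153 to 315 CPM at 120 h (-1.88), from 866 to 103 CPM in iCdh23 (-3.08), from 812 to 199 CPM in iMcam (-2.01) and by 0.79 on the log2 scale in the myoblast-enriched fraction, and rose at 24 h (0.24). Itga3, whose integrin binds Lama5 trimers, rose at 24 h (55.2 to 131 CPM, 1.27), 48 h (73.3 to 198 CPM, 1.43), 120 h (23.7 to 54.4 CPM, 1.19) and in iMcam (0.81), and fell at 0 h (397 to 335 CPM, -0.24). Bcam, a receptor for the Lama5 chain, rose at 0 h (13.6 to 35.5 CPM, 1.40), at 24 h (3.17 to 18.1 CPM, 2.54), at 48 h (0.88) and in iCdh23 (1.21) and iMcam (1.34). All changes named for both lists had edgeR adjusted p under 0.05.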

How the data were processed

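RNA-seq libraries were prepared from polyA RNA. The authors processed the reads with the nf-core/rnaseq pipeline, and the deposited tables hold expected counts, estimated per transcript with Salmon on mm10 (per the submitters' processing notes). The annotation release is not given in the sources used here. Counts were summed per gene with GENCODE vM21, which matched 98.72% of transcripts, and rounded. Levels are CPM after TMM scaling over all 47 libraries, and levels were compared between genes only as CPM per kb of the main transcript. Each pair of groups was tested with edgeR 4.0.16 (quasi-likelihood, filterByExpr, Benjamini-Hochberg adjustment over all genes, threshold 0.05) in R 4.3.3, and 4 differences between dox effects as interactions. The test was tested on simulated data. The standard error was taken from the F statistic. The alternatives tried were DESeq2 1.42.0, RLE scaling, testing without the low-count filter, the replicate number as a block and leaving out each library. Another was a fit of all groups of the deposited table or tables that held the compared groups. The long GC-rich index as a covariate was added after seeing the data.

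The members and gene lists were chosen with earlier results of these data known. All 9 members are named, the other lists by a fold over 2, adjusted p under 0.05 and no overlap, at most the 3 largest in each direction (not all are given). The other called changes of these genes were added after their values were seen. Some items are not reported here. Same-numbered libraries deviated together in every pair for iMcam (r = 0.362, 0.227 and 0.419), for the fractions without dox (0.413, 0.117 and 0.189) and for the myoblast-enriched fraction with and without dox (0.431 and 0.300). The numbers may thus pair the samples there, which was not tested. The main tests did not use this pairing. In iMcam 49.0% of all genes were called without the block and 58.0% with it. The authors describe the replicates as biological. Promoter windows came from RefSeq (GRCm38.p6).

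Gene positions (GRCm38) were Lama2 chr10:26980036-27619758 (-), Lama4 chr10:38965515-39110188 (+), Lama5 chr2:180176373-180225859 (-), Lamb1 chr12:31265234-31329644 (+), Lamb2 chr9:108479736-108490530 (+), Lamc1 chr1:153218922-153332786 (-), Nid1 chr13:13437551-13512269 (+), Nid2 chr14:19751265-19811787 (+) and Hspg2 chr4:137468769-137570630 (+).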

Additional observations from a re-analysis of the deposited data

Results flagged for a closer look

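The dox effect differed between settings, by an edgeR interaction test with adjusted p under 0.05, for 11 combinations of gene and setting. Between 24 h and 0 h in C2C12iMyoD1 the difference in log2 fold change was -2.35 for Nid1 (adjusted p = 1.36e-10), -0.43 for Lamb1 (adjusted p = 0.00173) and 0.40 for Lamb2 (adjusted p = 0.000480). For Nid1 the fall was seen at 24 h and the libraries overlapped at 0 h, with 24 h of dox in both settings.

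Between the 120 h culture and 48 h the difference was 1.19 for Lama2 (adjusted p = 2.02e-05), -0.63 for Lamb1 (adjusted p = 0.00174), -1.23 for Lamb2 (adjusted p = 0.00880), -1.14 for Lama5 (adjusted p = 0.0188) and -1.23 for Hspg2 (adjusted p = 0.0253), all by edgeR. The Hspg2 difference was not called without 120 h dox replicate 1 (-1.06), 48 h dox replicate 1 (-1.05) or 48 h no-dox replicate 3 (-1.19). Over all long GC-rich genes the median of this difference was -0.32.

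Between iMcam and iCdh23 the difference was 2.58 for Lama4 (adjusted p = 0.000609), 0.94 for Lamb1 (adjusted p = 0.0139) and 1.80 for Nid2 (adjusted p = 0.0262), all by edgeR.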

How the results depend on the processing

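Of 67 called values of single genes, 66 kept direction and call with DESeq2, 67 with RLE normalization, 67 without the low-count filter and 66 with the replicate block. With all groups of the deposited tables concerned in one fit, 57 kept them. The other 10 kept their direction in that fit: Lama5 at 48 h (0.57), Lama4 in the myoblast-enriched fraction (-1.27), Lama2 (-0.68), Lamc1 (0.59) and Nid1 (-0.59) in iCdh23, Lama5 (0.59), Lamb1 (-0.39) and Lamc1 (0.45) in iMcam, and Lamb1 (0.93) and Nid2 (1.79) for iMcam minus iCdh23. Leaving out single libraries gave 467 values, of which 437 kept the call and 30 lost it with the same direction. Of 56 values fitted with the long GC-rich index, 36 kept the call, 14 lost it and 6 reversed: Lama5 with dox at 0 h (-0.07), at 24 h (-0.22) and in iMcam (-0.01), Lama5 from 0 h to 24 h (0.06) and from 24 h to 48 h (-0.35), and Lamc1 from 24 h to 48 h (-0.30). The causes were not tested.

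Counts of called genes moved by over 1.5 times as follows. With all groups of the same deposited table in one fit, the count was 0 in the myoblast-enriched fraction (0.00638% of all genes called in the same fit), 4 of 9 in iCdh23 (46.9%), 2 in iMcam (26.3%) and 1 for the difference between iMcam and iCdh23 (2.38%). With the index it was 4 in the myoblast-enriched fraction (17.2%), 1 in iMcam (5.4%), 5 from 0 h to 24 h (36.5%) and 4 from 24 h to 48 h (38.0%). Without the low-count filter it was 2 in the myoblast-enriched fraction (8.65%). Leaving out libraries gave 0 to 1 in the myoblast-enriched fraction and 3 to 6 in iMcam, with 3 without iMcam dox replicate 1. The shares of all genes called in these fits are not given here, so these counts cannot be set against all genes.

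With the replicate block the count was 4 in the myoblast-enriched fraction, which has 2 pairs (r = 0.431 and 0.300), beside 28.4% of all genes in the same fit: Lama4 (-1.12), Lama5 (0.44), Lamb2 (0.73) and Hspg2 (0.76). Elsewhere the paired fit added Lamb1 at 0 h (-0.18), Lamc1 at 24 h (0.15), Nid1 in iMcam (-0.34), Lamc1 for the dox effect at 24 h minus 0 h (-0.25) and Lama2 for iMcam minus iCdh23 (0.55), and lost Hspg2 at 120 h (-0.91). In iCdh23 the correlations of same-numbered libraries were 0.135, 0.041 and 0.15. Outside iMcam, the fractions without dox and the myoblast-enriched pairs, the numbers were not taken to pair the libraries, and pairing was not tested.

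The 3 libraries per group limit what can be called (2 in the myoblast-enriched fraction with dox). In the fractions the standard errors of the 9 genes reached 0.571 in a comparison of 2 groups. Lama4 in iCdh23 with dox rests on levels under 1 CPM.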

Other observations

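Over the 16 group means of log2(CPM + 1), the gene most like a member among 10888 genes was Ryr3 for Lama2 (r = 0.992), Tgfb2 for Lamb1 (0.974), Car3 for Nid2 (0.966), Sorbs2 for Lama4 (0.953), Mfge8 for Lama5 (0.935), Usp25 for Lamc1 (0.928), Ecm1 for Hspg2 (0.921) and Csf1 for Nid1 (0.843). Ryr3 encodes a calcium release channel and Car3 a carbonic anhydrase abundant in muscle.

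Among the members themselves, Lama5 and Lamb2 were most alike over the 16 groups (r = 0.84), followed by Nid2 and Hspg2 (0.80) and Lamb1 and Nid2 (0.77), while Lamb1 and Lamb2 had r = -0.20 and Lama4 and Lamb2 r = -0.58. The groups share lines and tables, and these values are descriptions.

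Over the 16 groups, the length-scaled sum of the beta chains was between 1.10 ± 0.0715 (SD, n = 3) times the gamma chain, in the 120 h culture with dox, and 3.62 ± 2.03 times, in the myotube-enriched fraction with dox. The sum of the alpha chains was between 0.804 ± 0.0301 times, at 24 h without dox, and 1.40 ± 0.112 times, at 48 h with dox, and 1.40 ± 0.570 times in the myotube-enriched fraction with dox. The main transcript held a median of 58.6% of the Hspg2 counts. In the first myotube-enriched library with dox, the main transcript held 26.4% of the Lamc1 counts, against a median of 99.6% over all libraries.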
